A study of Mus musculus with 6 samples.

Results

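The genes described here mark the 2 mature B cell subsets of the mouse spleen, the marginal zone B cells and the follicular B cells. They were chosen by name, with every probe the array carries for them: Notch2 and Dtx1 of the Notch pathway, the sphingosine-1-phosphate (S1P) receptors S1pr3 and S1pr1, the complement receptor Cr2, the IgE receptor Fcer2a, the lipid-presenting molecule Cd1d1 and the tetraspanin Cd9. These are 8 genes with 11 probes, out of 14474 genes and unnamed targets tested, of which 11005 carried a gene symbol. The SA-H arrays 4, 5 and 6 held RNA from spleens of ICR mice that received cyclophosphamide (Cy), an alkylating drug that depletes lymphocytes, at 40 mg/kg for 5 days and then schisandrol A (SA), a lignan of Schisandra, at 1000 mg/kg/d. The MOD arrays 1, 2 and 3 held spleen RNA of ICR mice that received the same Cy and no SA. The SA dose given here is that of the labels. The paper gives its SA-H group a different dose, in μMol/kg, over fewer days. All mice were male and 8 weeks old when the study began. Both groups therefore carried the Cy treatment, and healthy mice were not analysed here. The labels place the SA-H samples at day 28 and the MOD samples at day 5, while the treatment text gives the model mice water over the same 4 weeks. If the labelled days hold, SA and time after Cy cannot be told apart.

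Marginal zone B cells sit at the border of the white pulp, where they meet blood-borne antigen, and follicular B cells fill the follicles and recirculate. Notch2 on the B cell, triggered by Delta-like ligand on stroma, is required for the marginal zone fate, and Dtx1 is one of the genes it switches on in these cells. S1P receptors hold marginal zone B cells in place against the pull of the follicle. Marginal zone B cells carry much Cr2 (CD21), Cd1d1 and Cd9 and little Fcer2a (CD23), whereas follicular B cells carry Fcer2a and less Cr2. In bulk spleen RNA, fewer cells of a type and less RNA per cell cannot be told apart.

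Each group had 3 arrays, and the labels do not say that these came from separate mice, so the spread between arrays may be technical. Levels are given as log2 of the processed signal relative to the 75th percentile (P75) of the same array. The P75 was 220 to 868 signal units on the SA-H arrays and 599 to 840 on the MOD arrays, and 44.7% to 73.9% of SA-H spots and 43.1% to 72.2% of MOD spots were well above background. SA-H array 4, with the lowest P75, stood apart: across genes it correlated with the MOD arrays at r = 0.838 to 0.897, and with SA-H arrays 5 and 6 at 0.928 and 0.925. The spleen label was checked against markers. Of the B cell markers 17 of 18 were bright enough to be tested, and of the T cell markers 16 of 16. The extraction text names liver. Of 12 liver markers 5 were tested, Hp, Serpina1a, Tat, Apoa2 and Cyp2e1, with log2 levels of 3.84 to 5.35 for Hp. The defining markers Alb, Apoa1 and Ttr were not kept. Apoa1 and Ttr were not well above background on any array, while Alb was on some array. At an unadjusted p under 0.05, Tat was higher in SA-H (1.93) and Serpina1a lower (-0.65), and the median of the 5 was 0.55. Of 18 ribosomal protein genes 2 were higher and 1 lower, and their median was 0.39, or 0.24 without SA-H array 4. Their part in the members' values was not tested. Over all genes, 3377 of 14474 passed an unadjusted p under 0.05 in limma's moderated test, 0 passed an adjusted p under 0.05 (smallest 0.0712), and the median log2 fold change of SA-H over MOD was -0.04. A signal table that the authors deposited was also tested. Its columns did not track the scanner files of the same arrays: the Spearman correlation with the own array was 0.808 to 0.898, only 1 of 6 columns correlated best with its own array, and after centring each probe 3 of 6 did, with column 3 at r = -0.28. Its values are given for the members as a second source, and the Notch2 value there was 0.29.

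Of the 8 members, 1 passed an unadjusted p under 0.05 (Fcer2a, higher in SA-H), against a background of 23.3% of all genes in either direction and 10.8% in the higher direction. No member passed after adjustment over all genes. The SA-H and MOD arrays did not overlap for 2 of the 8, S1pr3 and Cd1d1, both higher in SA-H, where 32.7% of all genes did not overlap, 11.9% with SA-H higher and 20.7% with SA-H lower. The members' median log2 fold change was 0.22, against -0.04 over all genes, and 4 of 8 members had a fold change below 0, against 52.3% of all genes. With both directions pooled, the members' counts were not above these shares. Each count of 1 or 2 members is too small to read against them by direction. Fcer2a was kept by the filter only through the SA-H arrays, where it was higher. It makes up the count of 1 and enters the median, so both are given as descriptions.

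**Figure D1:**
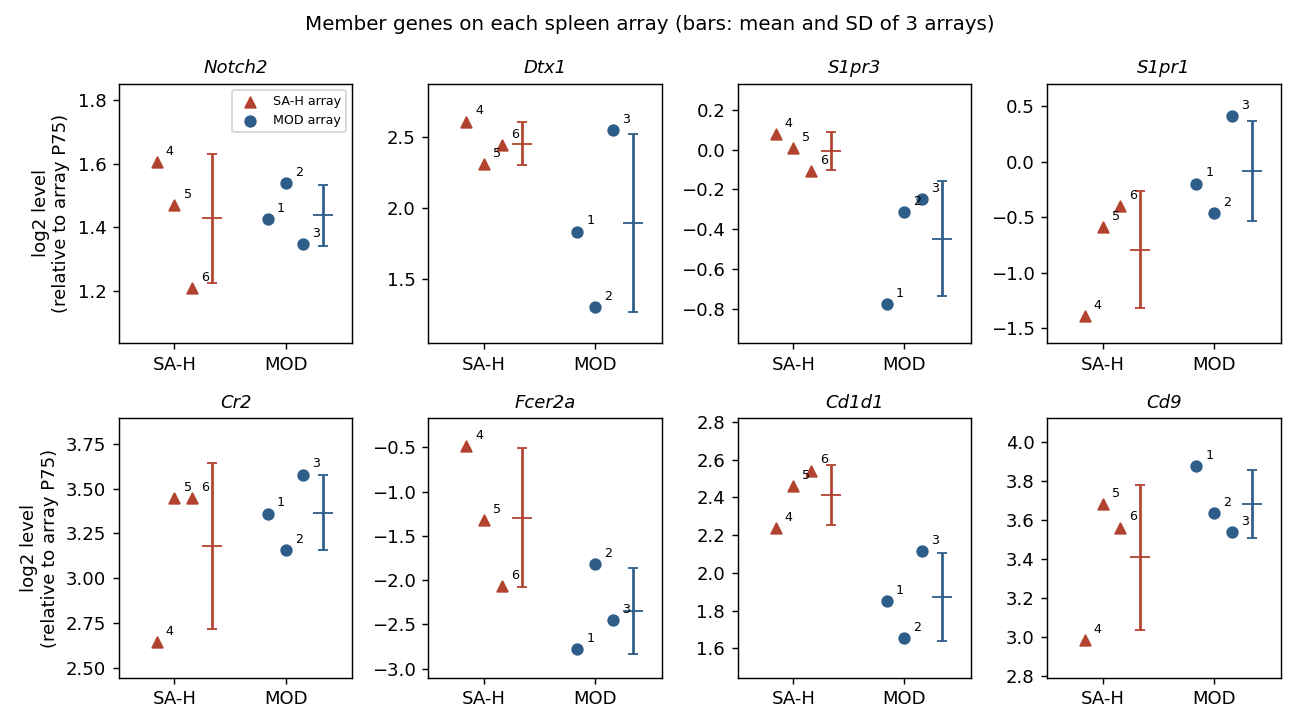
Log2 level relative to each array's 75th percentile (vertical axis, a separate range for each gene) of the 8 genes on the 3 SA-H arrays (triangles, left) and the 3 MOD arrays (circles, right), numbered by array, with the mean and SD of each group. The SA-H triangles of S1pr3 and Cd1d1 lie above all MOD circles, and array 4 is the lowest point for Cr2, S1pr1 and Cd9.

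Notch2, the receptor that directs B cells to the marginal zone, showed no difference beyond the spread of the arrays on the scanner values. Its log2 level was 1.61, 1.47 and 1.21 on SA-H arrays 4, 5 and 6, against 1.43, 1.54 and 1.35 on MOD arrays 1, 2 and 3. The arrays of both groups interleaved, and the log2 fold change was -0.01 (SE 0.23, 95% interval -0.55 to 0.53, adjusted p = 0.982 in limma). This interval leaves room for changes of up to about 0.5 on the log2 scale either way. A second Notch2 probe was dim, well above background on 1 SA-H and 1 MOD array, and was not tested. In the authors' table the tested probe gave 0.29 (adjusted p = 0.213 in limma), with no overlap. There the lowest SA-H column, at 9.93, lay just above the highest MOD column, at 9.92. The share of all genes without overlap in that table was not counted.

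Dtx1, an E3 ligase of the Deltex family and a Notch2 target in marginal zone B cells, had log2 levels of 2.61, 2.31 and 2.44 on the SA-H arrays, against 1.83, 1.30 and 2.55 on the MOD arrays. The SA-H arrays lay close together and the MOD arrays were spread, with MOD array 3 inside the SA-H range. The log2 fold change was 0.56 (SE 0.35, 95% interval -0.25 to 1.37, adjusted p = 0.353 in limma). Without MOD array 3 it was 0.89, past the unadjusted threshold, and without MOD array 2 it was 0.26. In the authors' table Dtx1 had log2 values of 12.40, 12.05 and 12.10 in SA-H columns 4, 5 and 6 and of 10.96, 11.10 and 11.25 in MOD columns 1, 2 and 3, a log2 fold change of 1.08 (adjusted p = 0.0135 in limma). That table called 32.7% of all genes at an unadjusted p under 0.05.

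The rest of the Notch pathway was taken from lists of ligands, receptors, processing enzymes, nuclear partners, targets and turnover factors. Of 45 genes, 34 were tested, and 3 were higher and 2 lower at an unadjusted p under 0.05, which is 14.7% against 23.3% of all genes. Kat2b, 1 of the 2 lower, was kept by the filter only through the MOD arrays. None of the 2 ligands and 3 other receptors tested passed. The ligand Dll1, which acts on Notch2 in the spleen, had log2 levels of -1.09, 0.65 and 0.50 on the SA-H arrays and 0.43, 0.40 and 0.81 on the MOD arrays. Array 4 was the low one, and the log2 fold change of -0.52 had an adjusted p of 0.512 in limma.

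Among the enzymes that prepare ligand and receptor, 1 of 12 passed. Neurl1a, a ligase that acts on Notch ligands, was higher in SA-H by 1.06 on the log2 scale (adjusted p = 0.205 in limma), with log2 levels of 0.23, -0.67 and -0.80 on the SA-H arrays and -2.20, -0.79 and -1.43 on the MOD arrays. Mib1, the ligase that sends Delta ligands into the cell, did not pass and was not well above background on array 4. It had -2.96 and -3.14 on SA-H arrays 5 and 6, against -2.51, -2.59 and -2.43 on the MOD arrays. Pofut1, which fucosylates Notch, differed by -0.53 (adjusted p = 0.230 in limma), and the fringe enzyme Mfng, which tunes the response to Delta ligands, by 0.11.

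In the nuclear complex, 1 of 8 genes was higher and 2 were lower. The acetyltransferase gene Crebbp had log2 levels of 2.74, 0.86 and 1.38 on the SA-H arrays, against -0.45, -0.65 and -0.09 on the MOD arrays, a log2 fold change of 2.06 (SE 0.48, adjusted p = 0.0933 in limma). Kat2b, another acetyltransferase, had -1.95 and -2.13 on SA-H arrays 5 and 6, against -0.80, -0.89 and -0.80 on the MOD arrays (adjusted p = 0.111 in limma over all arrays). Kat2b was not well above background on array 4, so no fold is given. The filter kept it only through the MOD arrays, where it was higher, and its call draws on that array 4 value. For Crebbp the groups did not overlap, as for 11.9% of all genes with SA-H higher, and array 4 was the highest. The coactivator Maml1 fell by 0.58 (adjusted p = 0.206 in limma). Its relative Maml3 differed by 0.47 (adjusted p = 0.251) and Rbpj, the DNA-binding partner of all Notch receptors, by 0.20 (adjusted p = 0.643), and neither passed.

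Of the classical Notch target genes, 3 of 6 were tested. Hey1, a transcriptional repressor, was higher in SA-H by 1.11 on the log2 scale (SE 0.44, adjusted p = 0.198 in limma). Its levels were 0.14, -1.23 and -0.48 on the SA-H arrays and -2.07, -1.87 and -0.94 on the MOD arrays, so MOD array 3 lay within the SA-H range. Hes5 differed by 0.91 (adjusted p = 0.268) and did not pass in limma. Hes1 did not pass either. It was not well above background on array 4, and it had -2.44 and -2.77 on SA-H arrays 5 and 6, against -2.60, -2.69 and -3.01 on the MOD arrays.

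**Figure D2:**
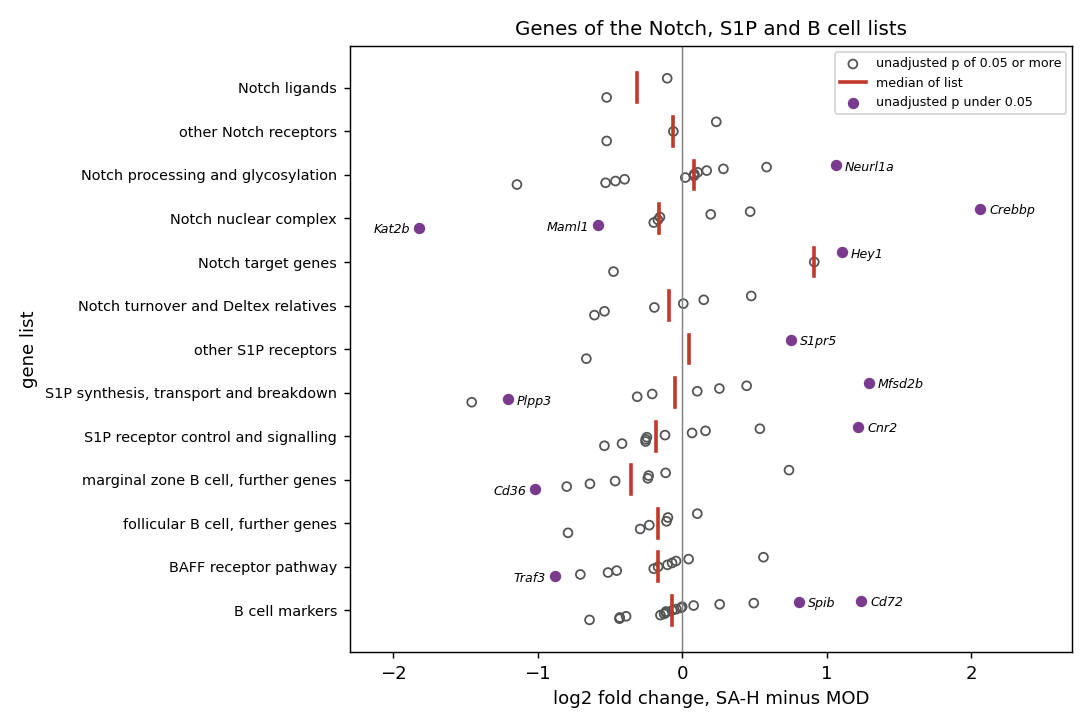
Log2 fold change of SA-H over MOD (horizontal axis) of the tested genes in 13 lists (rows), where filled points passed an unadjusted p under 0.05 in limma, open points did not, and red bars mark list medians. Most points lie within 1 of 0, with Crebbp the highest at 2.06. Kat2b is plotted at a value that rests on array 4, where it was not well above background.

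The sequences before the start sites were searched for GTGGGAA on both strands, the core that Rbpj binds in Notch target genes. RefSeq promoters (GRCm38.p6) were at hand for 6 of the 8 members. The motif was in the 250 bases before a start of 2 of them, Cr2 and Cd9, and in 1669 of 27025 genes with a promoter (6.18%). It was not found in these letters before the starts of Notch2, Dtx1, Fcer2a or S1pr3. Hes5 held 2 copies, 1 on each strand. The 2 member promoters are shown because they hold the motif, in capitals, 5′ to 3′ on the gene's strand. Both genes lie on the minus strand. For Cr2, the 89 bases outside the gene span at chr1:195176881-195176969 are given. The motif starts 221 bases before the annotated start used. That start lies inside the gene span, as do 161 of the 250 bases. For Cd9, the 250 bases at chr6:125494761-125495010 are given, and the motif starts 212 bases before the start.
Cr2: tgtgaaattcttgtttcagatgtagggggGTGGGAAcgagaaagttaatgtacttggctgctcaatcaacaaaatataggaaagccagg
Cd9: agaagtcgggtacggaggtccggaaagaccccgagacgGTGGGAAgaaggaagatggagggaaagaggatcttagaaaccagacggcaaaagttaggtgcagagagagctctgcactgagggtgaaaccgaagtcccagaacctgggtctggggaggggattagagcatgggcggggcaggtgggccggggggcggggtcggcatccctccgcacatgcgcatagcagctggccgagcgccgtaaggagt
A match describes the letters only, and binding was not measured.

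S1pr3 and S1pr1 both bind S1P, the lipid that is high in blood and low in tissue. S1pr1 serves lymphocytes in general in leaving tissues and endothelium in keeping vessels closed, and S1pr3 is high on marginal zone B cells among lymphocytes. S1pr3 had log2 levels of 0.08, 0.01 and -0.11 on the SA-H arrays, against -0.78, -0.31 and -0.25 on the MOD arrays. All SA-H arrays were above all MOD arrays, and the gap between SA-H array 6 and MOD array 3 was small. The log2 fold change was 0.44 (SE 0.24, 95% interval -0.13 to 1.02, adjusted p = 0.305 in limma). Arrays scanned on the same day gave 0.41 (SA-H array 6 against MOD arrays 1 and 3) and 0.39 (SA-H array 4 against MOD array 2). SA-H array 5 was scanned on a day of its own. Without MOD array 1 the value was 0.27. In the authors' table it was 0.88 (adjusted p = 0.0437 in limma), with no overlap. There 1779 of 14474 genes passed an adjusted p under 0.05, and the share of all genes without overlap was not counted.

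S1pr1 had a fold change below 0 on the scanner values and above 0 in the authors' table, and passed in neither. Its log2 levels were -1.39, -0.59 and -0.40 on the SA-H arrays, against -0.20, -0.47 and 0.41 on the MOD arrays. Array 4 was the lowest, with a signal of 83.6 units, and SA-H array 6 lay above MOD array 2, so the groups overlapped. The log2 fold change was -0.71 (SE 0.36, 95% interval -1.56 to 0.14, adjusted p = 0.273 in limma), and -0.41 without array 4. In the authors' table the log2 fold change was 0.45 (adjusted p = 0.320 in limma). Scaling by the array median gave -1.03, past the unadjusted threshold, a setting that also moved the median of all genes to -0.36.

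The difference S1pr3 minus S1pr1 was taken within each array, where the scaling of the array drops out. It was 1.47, 0.60 and 0.30 on the SA-H arrays, against -0.58, 0.15 and -0.66 on the MOD arrays. The groups did not overlap, and the mean was 0.79 ± 0.61 in SA-H and -0.36 ± 0.45 in MOD (SD, n = 3 each), a difference of 1.15 (exact two-sided permutation p = 0.1, the smallest that 3 against 3 arrays can give, and 0.2 adjusted over the 2 pairs tested). Within scan days it was 0.92 and 1.32, and it was 0.42 in the authors' table.

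Other S1P genes were counted in the same way. Of 25 genes, 20 were tested, with 3 higher and 1 lower at an unadjusted p under 0.05, which is 20% against 23.3% of all genes. S1pr5, a receptor best known from natural killer cells, was higher by 0.75 (adjusted p = 0.191 in limma), with -0.47, 0.32 and -0.30 on the SA-H arrays against -0.61, -1.06 and -1.04 on the MOD arrays. S1pr2 did not pass and was not well above background on array 4. It had -1.66 and -2.11 on SA-H arrays 5 and 6, against -1.66, -1.74 and -2.73 on the MOD arrays. Mfsd2b, which exports S1P from red cells and platelets, was higher by 1.29 (adjusted p = 0.188 in limma) with log2 levels of 8.41, 6.49 and 7.23 on the SA-H arrays and 5.68, 6.52 and 6.06 on the MOD arrays, which overlap at SA-H array 5 and MOD array 2. Plpp3, a phosphatase that breaks S1P down, fell by 1.21 (adjusted p = 0.104 in limma), with no overlap.

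Among genes that control or serve these receptors, Cnr2, the cannabinoid receptor that helps keep marginal zone B cells in place, was higher by 1.22 (adjusted p = 0.198 in limma). Its log2 levels were 5.56, 4.52 and 3.66 on the SA-H arrays, against 3.27, 3.80 and 3.02 on the MOD arrays, so SA-H array 6 lay below MOD array 2. Foxo1, a regulator of S1pr1 and Klf2 in lymphocytes, differed by 0.54 (adjusted p = 0.215 in limma) and Klf2 itself by 0.16 (adjusted p = 0.713). Cd69, which removes S1pr1 from the surface, differed by -0.54 (adjusted p = 0.463).

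S1pr1 and S1pr3 are also expressed by other cells of the spleen. None of the 13 endothelial markers tested (of 14) passed. Their median was -0.30, -0.02 without SA-H array 4 and 0.19 over markers well above background on all 6 arrays, and their summed linear level was 31.3 to 39.4 on the SA-H arrays and 25.3 to 36.2 on the MOD arrays, in multiples of the P75. None of the 16 T cell markers passed, with a median of -0.08 and summed levels of 34.6 to 47.8 in SA-H and 35.6 to 70.7 in MOD. Of the endothelial markers, Emcn was not well above background on any array. The part of these cells in the S1P receptor values was not tested.

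**Figure D3:**
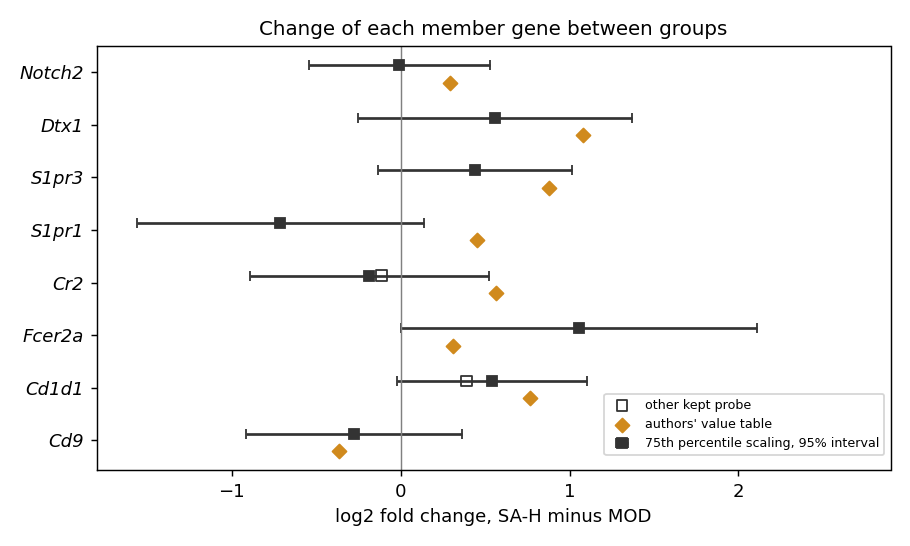
Log2 fold change of SA-H over MOD (horizontal axis) for each gene (rows), with limma's 95% interval on the scanner values (filled squares), the other kept probe where there is one (open squares) and the authors' value table (diamonds). Of the 8 intervals only that of Fcer2a, starting at 0.00, does not span 0, and the diamonds of S1pr1, Cr2 and Notch2 lie on the other side of 0 from their squares.

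Cr2 encodes in the mouse both complement receptors CD21 and CD35, which bind C3 fragments on antigen and lower the threshold of the B cell receptor. Its log2 levels were 2.65, 3.45 and 3.44 on the SA-H arrays, against 3.36, 3.16 and 3.58 on the MOD arrays. SA-H array 4 alone was low, and the other SA-H arrays lay within the MOD range. The log2 fold change was -0.19 (SE 0.30, 95% interval -0.89 to 0.52, adjusted p = 0.724 in limma), and it was 0.08 without array 4. The second Cr2 probe gave -0.11, with 2.92, 2.92 and 3.07 in SA-H and 3.08, 2.71 and 3.46 in MOD. The authors' table gave the opposite sign, 0.56 (adjusted p = 0.0783 in limma), with no overlap. The share of all genes without overlap in that table was not counted.

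Fcer2a, the low-affinity IgE receptor CD23 of follicular B cells, was the one member past the unadjusted threshold, and it was dim. Its signals were 156, 346 and 103 units on the SA-H arrays, against 91.4, 237 and 110 on the MOD arrays, and it was not well above background on MOD array 1. It passed the filter only through the SA-H arrays. Relative to the P75 the log2 levels were -0.49, -1.33 and -2.06 on the SA-H arrays, against -2.77, -1.82 and -2.45 on the MOD arrays, so SA-H array 6 lay below MOD array 2. The log2 fold change was 1.06 (SE 0.45, 95% interval 0.00 to 2.11, adjusted p = 0.213 in limma). It no longer passed without MOD array 1 (0.84), MOD array 3 (1.00), SA-H array 4 (0.65) or SA-H array 5 (1.07), and within scan days it was 0.55 and 1.33. In the authors' table it was 0.31 (adjusted p = 0.106 in limma).

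Since marginal zone B cells have more Cr2 and follicular B cells more Fcer2a, the change of Cr2 minus Fcer2a was compared. The difference was 3.14, 4.77 and 5.51 on the SA-H arrays, against 6.13, 4.98 and 6.03 on the MOD arrays. Fcer2a was not well above background on MOD array 1, so the difference of 6.13 there is not exact, and the filter kept Fcer2a only through SA-H. SA-H array 6 lay within the MOD range, and the means of 4.47 ± 1.21 in SA-H and 5.72 ± 0.64 in MOD (SD, n = 3 each) differed by -1.24 (exact two-sided permutation p = 0.2, also 0.2 adjusted over the 2 pairs). Without SA-H array 4 it was -0.57. The authors' table gave 0.25, with the opposite sign.

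Follicular dendritic cells carry Cr2 and, when activated, Fcer2a. Of 8 markers of these cells and of lymphoid stroma, 1 passed (12.5%, against 23.3% of all genes). This was Ltbr, the lymphotoxin beta receptor, higher by 1.11 (adjusted p = 0.111 in limma), with 2.31, 1.89 and 1.77 on the SA-H arrays and 0.65, 1.37 and 0.62 on the MOD arrays. Their summed linear level was 85.7 to 112 in SA-H and 72.7 to 121 in MOD, and all 8 were well above background on some array. Their part in the Cr2 and Fcer2a values was not tested.

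Cd1d1 presents lipids to natural killer T cells and is high on marginal zone B cells. Its log2 levels were 2.24, 2.46 and 2.54 on the SA-H arrays, against 1.85, 1.65 and 2.12 on the MOD arrays. Every SA-H array was above every MOD array, with SA-H array 4 and MOD array 3 nearest each other. The log2 fold change was 0.54 (SE 0.24, 95% interval -0.02 to 1.103, adjusted p = 0.227 in limma), 0.56 and 0.58 within scan days, and 0.63 without array 4, where it passed the unadjusted threshold. The other Cd1d1 probe gave 0.39 (adjusted p = 0.495 over all kept probes in limma), with -0.60, 0.46 and 0.38 in SA-H and -0.28, -0.55 and -0.10 in MOD, which overlap through array 4. The authors' table gave 0.76 (adjusted p = 0.300 in limma).

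Cd9, a tetraspanin of marginal zone B cells, B-1 cells and platelets, had log2 levels of 2.98, 3.68 and 3.56 on the SA-H arrays, against 3.87, 3.63 and 3.54 on the MOD arrays. Array 4 was again the low one, and the log2 fold change was -0.27 (SE 0.27, 95% interval -0.91 to 0.37, adjusted p = 0.549 in limma), or -0.06 without array 4. In the authors' table it was -0.36. None of 11 platelet and megakaryocyte markers tested (of 12) passed, with a median of 0.04 and summed linear levels of 80.5 to 122 in SA-H and 84.3 to 99.5 in MOD. Dendritic cells express Cd1d1 and Cd9 too, and none of their 7 tested markers passed. The part of these cells was not tested.

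**Figure D4:**
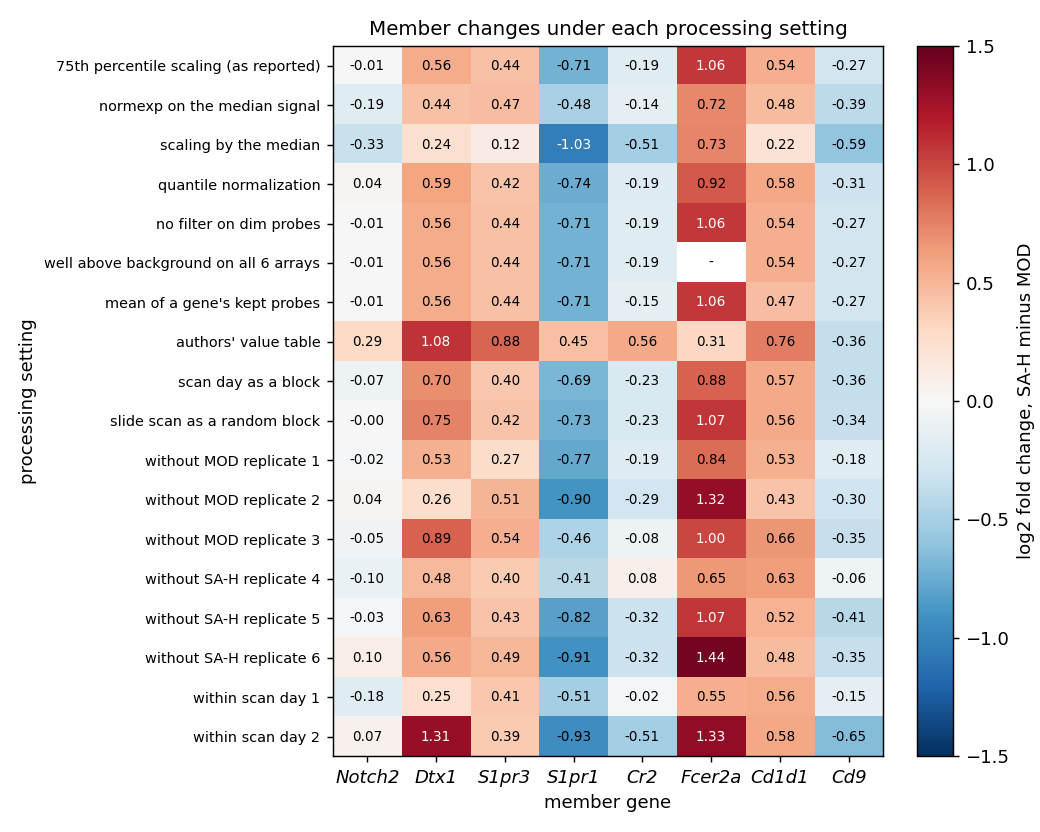
Log2 fold change of SA-H over MOD (cell value and colour) of each gene (columns) under each processing setting (rows), where the blank cell marks a gene that was not tested. Dtx1, S1pr3, Fcer2a and Cd1d1 are above 0 and Cd9 below 0 in every row, whereas Cr2, Notch2 and S1pr1 change sign in at least 1 row.

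To set the members against the B cell content of each array, their levels were taken relative to the median level of the 17 B cell markers. That median was 2.47, 2.43 and 2.26 on the SA-H arrays and 2.36, 2.26 and 2.29 on the MOD arrays, a difference of 0.08, while the median fold change of the 17 markers had the other sign, at -0.07. Relative to it, S1pr3 differed by 0.36 with no overlap, Cd1d1 by 0.46 with overlap, Dtx1 by 0.47, Fcer2a by 0.97, Notch2 by -0.09, Cr2 by -0.27, Cd9 by -0.36 and S1pr1 by -0.80. In a setting chosen after seeing the data, each marker was first centred on its own mean over the arrays, and the median was then -0.29, 0.04 and 0.23 on the SA-H arrays and 0.00, -0.18 and 0.32 on the MOD arrays. Relative to that measure Cd1d1 differed by 0.59 with no overlap and S1pr3 by 0.49 with overlap, S1pr1 differed by -0.66 with no overlap, and Notch2 turned to 0.04. Whether S1pr3 and Cd1d1 overlapped thus depended on how B cell content was taken. Of the B cell markers themselves, 2 of 17 passed (11.8%, against 23.3% of all genes). These were Cd72 (a coreceptor of B cells) at 1.24 and Spib (an Ets factor of B cells) at 0.80, both higher in SA-H. In the authors' table the median log2 fold change of the B cell markers was 0.41.

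Further genes of both subsets were counted from lists. Of 8 tested marginal zone genes, 1 passed, Cd36, and was lower (12.5%, against 23.3% of all genes). The list also held Mzb1, Fcrl5, Plac8, Asb2 and the integrin genes Itgal, Itgb1 and Itgb2. Cd36, a scavenger receptor of marginal zone B cells and macrophages, had 0.03, 0.65 and 0.48 on the SA-H arrays, against 1.67, 1.38 and 1.17 on the MOD arrays, a log2 fold change of -1.02 (SE 0.27, adjusted p = 0.106 in limma). Mzb1, a chaperone of antibody-forming B cells, differed by -0.80 (adjusted p = 0.265) and Fcrl5, a receptor of marginal zone B cells, by 0.74 (adjusted p = 0.295). The median of the 8 was -0.35. It was 0.01 without SA-H array 4, and -0.01 and -1.12 within scan days 1 and 2. The 3 marginal zone macrophage markers tested (of 5, without Cd209b and Siglec1) had a summed linear level of 9.42 to 20.1 in SA-H and 21.7 to 23.5 in MOD. None of them passed an unadjusted p under 0.05 in limma. Cd5l had log2 levels of 1.81, 3.26 and 3.25 on the SA-H arrays, against 3.87, 3.72 and 3.47 on the MOD arrays. Marco had 2.52, 3.31 and 3.32, against 3.10, 3.03 and 3.48. Cd209a was not well above background on array 4. The median log2 fold change of these 3 markers was -0.15, and 0.12 without SA-H array 4. Their part in the Cd36 value was not tested.

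None of the 6 follicular genes passed, with a median of -0.17. The median was 0.00 without SA-H array 4, 0.02 without MOD array 3 and 0.65 in the authors' table. Bach2, a repressor that holds B cells in the naive state, was nearest, with -0.87, 0.00 and 0.20 on the SA-H arrays and 0.41, 0.22 and 1.07 on the MOD arrays (log2 fold change -0.79, adjusted p = 0.247 in limma). Cxcr5, the receptor for the follicle chemokine, differed by -0.29 (adjusted p = 0.640). In the pathway of BAFF, the survival factor both subsets need, 1 of 11 genes passed (9.09%, against 23.3% of all genes). This was Traf3, a brake on that pathway, which fell by 0.88 (adjusted p = 0.153 in limma) with no overlap.

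Across the 6 arrays, the genes whose levels ran most like Cr2 among 9073 named genes were Stimate (r = 1.00), Zswim6 (r = 0.996) and Slc35f6 (r = 0.995), all low on array 4. Those most like Notch2 were Ing5 (r = 0.985), Ccdc137 (r = 0.979) and Sdsl (r = 0.979), all low on array 6. The match to Cr2 was made with the probe used. The other kept Cr2 probe was lowest on MOD array 2 (2.71), with 2.92 on SA-H array 4. With 6 points that share arrays and scaling, these matches are descriptions.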

How the data were processed

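Spleen RNA was labelled with Cy3 and hybridised to 1-colour Agilent arrays. Per the file headers, the deposited scanner files hold the intensity of each spot, and gProcessedSignal is already background-subtracted by Agilent Feature Extraction 11.0.1.1 (named in the submitters' processing notes). The authors also deposited a log2 value table, whose normalization is not given in the sources used here. Each of its columns has the same median, 5.34. The main values were log2 of gProcessedSignal minus each array's 75th percentile over 43020 spots. Outlier spots were left out, spots of a probe were averaged, and probes with a value on all 6 arrays were kept where SA-H, MOD or both had all 3 spots well above background. Of a gene's kept probes, the brightest was used. limma 3.58.1 (lmFit, eBayes, R 4.3.3) tested SA-H minus MOD with Benjamini-Hochberg adjustment over all 14474 genes and unnamed targets, and the code was tested on simulated data. The methods name no array test. The authors' table, other backgrounds (normexp, offset 50, on the median signal, since the mean signal was not used here), scalings, filters, blocks and left-out arrays were alternatives. Scan days 1 and 2 held both groups. Precision is limited by 3 arrays in each group. The members and lists were chosen with earlier results of these data known. Named genes were all members, up to 4 genes of each list with the smallest p or others whose role called for a value, and the 3 genes most correlated with Cr2 and with Notch2 (provisional symbols left out). Promoters came from RefSeq, GRCm38.p6, and their coordinates were not joined to the array's own. The result of 1 further gene list is not reported here.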

Additional observations from a re-analysis of the deposited data

How the results depend on the processing

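No paired analysis was possible because the arrays of the 2 groups share no replicate numbers. The number of genes at an adjusted p under 0.05, 0 as reported, was 210 with normexp, 1094 with scaling by the median, 4 with quantile normalization, 1 with probes well above background on all 6 arrays, 1779 in the authors' table and 1075 with scan day as a block. Leaving out 1 array at a time gave 0 to 22 (22 without SA-H array 4). The number with a fold of at least 2, 1849 as reported, was 3158 with scaling by the median and 1228 to 2466 with 1 array left out. The number at an unadjusted p under 0.05, 3377 as reported, was 1729 (without MOD array 1) to 3406 with 1 array left out. It was 3886 with slide scan as a random block, 4438 with scan day as a block and 4726 in the authors' table. Among the 3377 calls as reported, 46.2% were higher in SA-H, against 31.0% with scaling by the median, 60.3% with no filter, 56.8% with scan day as a block and 57.4% without MOD array 2. Scaling by the median moved the median of all genes to -0.36 and no filter to 0.14. The number of members higher was 2 with normexp and with slide scan as a random block (Fcer2a and Cd1d1), 4 in the authors' table (Cr2, Fcer2a, Dtx1 and S1pr3), 0 with scaling by the median, with quantile normalization, with no filter and with all 6 arrays above background, where Fcer2a was not tested, and 0 to 2 with 1 array left out. With scaling by the median 1 member was lower, S1pr1. Signs turned for Cr2 in the authors' table (0.56) and without SA-H array 4 (0.080, the highest over left-out arrays, with -0.32 the lowest), for S1pr1 in the authors' table (0.45), for Cr2 minus Fcer2a in the authors' table (0.25), and for Notch2 with quantile normalization (0.038), in the authors' table (0.29) and within scan day 2 (0.067), with -0.10 to 0.10 over left-out arrays. The cause was not tested. The authors' table also gave other list medians, -1.58 for platelet, 0.74 for T cell and 1.13 for marginal zone macrophage markers. There the median was 0.41 for B cell markers, 0.43 for the BAFF pathway, 0.29 for endothelial markers and 0.33 for the other Notch receptors. Relative to B cell markers, Notch2 turned to 0.041 with each marker centred on its mean, a setting chosen after seeing the data. Low signal limits Fcer2a on MOD array 1, and Kat2b, Mib1, Hes1 and S1pr2 on SA-H array 4, where they were not well above background.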
